A study of Mus musculus with 16 samples.

Results

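The regions described here are the 10-kb stretches of the mouse autosomes, called bins, that were densest in H3K9me3 in wild-type haploid spermatids. Distinct fragments of both WT H3K9me3 libraries were pooled on chr1-19, and the fold of a bin is its number of fragment midpoints over the chr1-19 mean, which was 28.0 fragments a bin. A bin was a member when its fold was at least 4 and it lay outside the first 4 Mb and the last 1 Mb of its chromosome. There were 8850 members among 236766 eligible bins, or 3.74%, and 246285 bins in all.

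The study asked what loss of H2A.B, a short histone H2A variant encoded on the X chromosome and made mainly in the testis, does to chromatin in male germ cells. Live haploid spermatids were sorted by DNA content from 2-month-old males of 2 sibling pairs, each with 1 WT and 1 H2A.B KO animal, in which H2afb1, H2afb2 and H2afb3 were all disrupted by CRISPR. All KO animals came from 1 knockout strain. Each animal was profiled by AutoCUT&RUN, in which micrococcal nuclease is tethered to an antibody and releases the DNA around its target, with antibodies against H3K9me3, H3K27me3 and H3K4me3, and IgG served as the control for untargeted cutting. There are thus 16 libraries, 2 for each of the 8 combinations of target and genotype. Libraries with the same replicate number were taken as a sibling pair, which the labels do not state.

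H3K9me3 is the mark of constitutive heterochromatin. It is written by the Suv39h and Setdb1 enzymes and bound by HP1 proteins, and in mouse cells it covers the satellite repeats around centromeres, many retrotransposons and clusters of recently duplicated genes. Satellites are long arrays of one short unit, and most of them are missing from the assembled chromosomes, so the few assembled copies receive the fragments of many. The paired reads were 25 bases long, and a fragment whose ends both lie in repeated sequence can be placed at more than 1 site, so a bin rich in repeats reports on a repeat family rather than on that locus alone.

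The H3K9me3 libraries held 3136799 to 3963850 distinct fragments on chr1-19, the H3K27me3 libraries 196218 to 3773436, the H3K4me3 libraries 708411 to 3229214 and the IgG libraries 140181 to 236269. Between 42.6% and 84.4% of the deposited chr1-19 rows repeated the coordinates of an earlier row, and each such fragment was counted once. H3K4me3 within 1 kb of the start of 9 of 10 spermatid genes was at least 4-fold above the chr1-19 mean in every library, and none of 10 Leydig, Sertoli and blood genes reached that level. Of 5 spermatogonial genes 1 to 2 reached it, and of 3 meiotic genes 2. Each library held 0 to 5 distinct fragments over each of the 3 near-identical H2afb genes, too few to check the genotypes. In bulk libraries, fewer cells with a mark and less of the mark per cell cannot be told apart.

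The sequences under the densest members are shown first, since they tell what kind of DNA carries the signal. They are 200-base windows of the GRCm38.p6 assembly (RefSeq; the coordinates of mm10), + strand, and except for the last 2 each holds the most WT H3K9me3 midpoints of its bin. Those on chr2, chr14 and chr9 are mouse major satellite, the repeat of pericentromeric heterochromatin, and capitals mark the 20-base stretches found, on either strand, in all 3 of those bins.
chr2:98666843-98667042: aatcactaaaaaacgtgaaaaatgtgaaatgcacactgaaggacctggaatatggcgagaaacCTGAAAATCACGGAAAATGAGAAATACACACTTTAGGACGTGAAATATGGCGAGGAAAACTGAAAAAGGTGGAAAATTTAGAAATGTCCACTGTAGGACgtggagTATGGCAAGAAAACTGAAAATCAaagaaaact
chr14:19417425-19417624: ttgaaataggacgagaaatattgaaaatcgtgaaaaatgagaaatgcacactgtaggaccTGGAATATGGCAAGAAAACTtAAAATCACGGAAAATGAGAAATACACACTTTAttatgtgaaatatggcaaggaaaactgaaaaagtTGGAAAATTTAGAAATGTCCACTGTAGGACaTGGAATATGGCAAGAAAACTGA
chr9:35305342-35305541: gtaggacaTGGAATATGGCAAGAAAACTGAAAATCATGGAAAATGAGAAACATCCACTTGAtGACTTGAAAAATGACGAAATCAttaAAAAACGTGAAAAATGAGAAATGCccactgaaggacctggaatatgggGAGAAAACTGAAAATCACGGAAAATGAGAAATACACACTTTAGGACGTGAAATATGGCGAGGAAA
The chr2 window lies in an exon of Gm10800, the chr14 window in an intron of Gm21738 and the chr9 window in an intron of the non-coding gene Gm33838. The 3 bins shared 270 stretches of 20 bases, and 24 autosomal bins held at least 1 of them, of which 12 were members, 8 lay in the excluded chromosome ends and 4 were eligible bins that missed the threshold. Of those 8, 4 adjacent bins at the centromere end of chromosome 9 had pooled WT folds of 7164 to 10159.

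The next window is minor satellite, the repeat on which mouse centromeres are built, in an intron of Chl1, a neural cell adhesion gene. Capitals mark its CENP-B box, the site bound by the centromere protein CENP-B, found here on the - strand as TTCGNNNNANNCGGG. The window held 10158 of the 10236 midpoints of its bin, or 99.2%.
chr6:103649071-103649270: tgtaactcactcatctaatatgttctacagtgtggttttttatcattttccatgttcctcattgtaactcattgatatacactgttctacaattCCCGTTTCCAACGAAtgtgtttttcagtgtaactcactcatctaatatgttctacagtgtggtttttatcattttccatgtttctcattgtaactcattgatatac
The CENP-B box, searched on both strands, occurred in 11 members, or 0.124%, and in 0.230% of the other eligible bins. The chr2 major satellite bin held 6 matches.

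Both following windows are simple tandem arrays, with 1 repeat unit in capitals. The chr17 unit of 5 bases lies in the non-coding genes 2700054A10Rik and AC174800.1, and the chr4 unit of 44 bases lies between genes.
chr17:13552636-13552835: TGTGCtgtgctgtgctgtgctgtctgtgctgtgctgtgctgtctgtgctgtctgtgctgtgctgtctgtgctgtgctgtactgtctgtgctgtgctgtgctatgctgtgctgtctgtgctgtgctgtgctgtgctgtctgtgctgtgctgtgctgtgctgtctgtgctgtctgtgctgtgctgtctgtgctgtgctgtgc
chr4:118548197-118548396: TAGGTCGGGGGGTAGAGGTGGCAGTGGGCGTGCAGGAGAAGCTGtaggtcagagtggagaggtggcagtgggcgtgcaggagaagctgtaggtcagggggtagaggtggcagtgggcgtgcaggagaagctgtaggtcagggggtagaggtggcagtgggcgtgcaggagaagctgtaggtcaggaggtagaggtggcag
The next pair comes from 2 members on chromosome 5 that share sequence. Capitals mark the 2 bases at which the windows differ, which leaves 99% identity over 200 bases between separate bins. The first lies in Speer4cos, antisense to a gene of the testis-expressed Speer family. The second, whose bin has no annotated gene, is the stretch of its bin most like the first, with 3.68% of the bin's midpoints against 5.08% in the densest 200 bases. These bins were 68.06% and 76.73% repeat-masked, and 35.05% and 49.59% of their 25-base words had 10 or more copies in the genome. The windows may thus be dispersed repeat rather than Speer sequence, which was not tested.
chr5:15692820-15693019: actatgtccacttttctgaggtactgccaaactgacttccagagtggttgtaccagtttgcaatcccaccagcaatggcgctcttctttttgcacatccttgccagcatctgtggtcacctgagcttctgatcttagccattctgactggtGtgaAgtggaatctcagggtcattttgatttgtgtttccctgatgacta
chr5:15008443-15008642: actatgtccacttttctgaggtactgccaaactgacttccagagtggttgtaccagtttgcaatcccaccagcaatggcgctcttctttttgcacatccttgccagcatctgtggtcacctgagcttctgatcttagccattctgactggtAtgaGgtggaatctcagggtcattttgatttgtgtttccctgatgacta
The last window comes from the commonest kind of isolated member. Capitals mark a 20-base stretch from the start of the second open reading frame of LINE-1, the most abundant autonomous retrotransposon of the mouse. It was picked after the data were seen, as the stretch whose share differed most between members and other eligible bins. The window was placed around that stretch and held 22 of the 128 midpoints of its bin. That bin was picked as the isolated member with the most midpoints in such a window, so the count is not typical.
chr10:45518829-45519028: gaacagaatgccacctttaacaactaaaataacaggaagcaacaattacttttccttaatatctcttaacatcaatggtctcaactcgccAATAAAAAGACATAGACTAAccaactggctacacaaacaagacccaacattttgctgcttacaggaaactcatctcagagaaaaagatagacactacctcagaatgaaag
That LINE-1 stretch occurred in 37.2% of members, in 63.4% of members with no member beside them and in 14.2% of members in runs of 10 or more. It was in 4.76% of the other eligible bins and in 30.1% of those that are at least 50% repeat-masked.

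The fold that chose the members was 5.88 at the median, with quartiles of 4.60 and 9.13, against 0.214 over the other eligible bins. It reached 10 in 1906 members, 20 in 437, 50 in 74 and 100 in 14, and it was under 5 in 3164. The 3 members named just inside the threshold had 113 fragments and a fold of 4.03, and the 3 bins just outside had 112 fragments and a fold of 3.99. A further 6474 eligible bins lay between 3 and 4, so the list has no natural edge. Both WT libraries reached 4 on their own in 6126 members. WT 1 was above WT 2 in 77.8% of members, and WT 2 alone fell short of 4 in 2465 members against 259 for WT 1.

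The 2 WT libraries were more than 4-fold apart in 4 members, and in 2 of these a short stretch held most of the signal. At chr12:69650001-69660000, in Sos2, a guanine nucleotide exchange factor of Ras signaling, the H3K9me3 fold was 15.9 in WT 1 and 1.33 in WT 2, with 89.2% of midpoints in 1 kb. At chr17:4620001-4630000, which has no gene, it was 1.18 in WT 1 and 17.96 in WT 2, with 97.2% of midpoints in 1 kb. Each of these bins was therefore a member through 1 library.

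The KO libraries, which had no part in the rule, were dense in the same bins. Members held 39.2% and 31.6% of the chr1-19 fragments of KO 1 and KO 2, and 37.9% and 33.3% of those of WT 1 and WT 2. The pooled KO fold was at least 4 in 6959 members, or 78.6%, and these made up 89.6% of the 7770 eligible bins that the same rule would have picked from the KO libraries. The median fold over members was 6.64 in KO 1, 5.08 in KO 2, 6.41 in WT 1 and 5.33 in WT 2. Libraries with the same replicate number were thus closer to each other than libraries of the same genotype, and the genotypes overlapped.

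The other targets were denser in the members as well, by less. Over all members together the fold in the 4 libraries of IgG was 3.78 and 3.25 in KO and 3.17 and 3.43 in WT. The fold of H3K4me3 was 2.50 and 1.58 in KO and 3.01 and 1.95 in WT. The fold of H3K27me3 was 1.35 and 3.13 in KO and 1.51 and 2.06 in WT. The mean log2 fold was 1.77 for IgG, 1.13 for H3K4me3 and 0.93 for H3K27me3, each above 0 in 4 of 4 libraries (exact two-sided sign-flip permutation test, p = 0.125, the smallest that 4 libraries allow, and 0.125 adjusted over the 3 targets). With members of a pooled IgG fold under 4 alone, the mean was 0.61 for H3K4me3 and 0.056 for H3K27me3 (p = 0.125 and 0.875 in the same exact test). With every deposited row counted, it was 0.84 for IgG, 0.14 for H3K4me3 and 0.22 for H3K27me3.

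**Figure D1:**
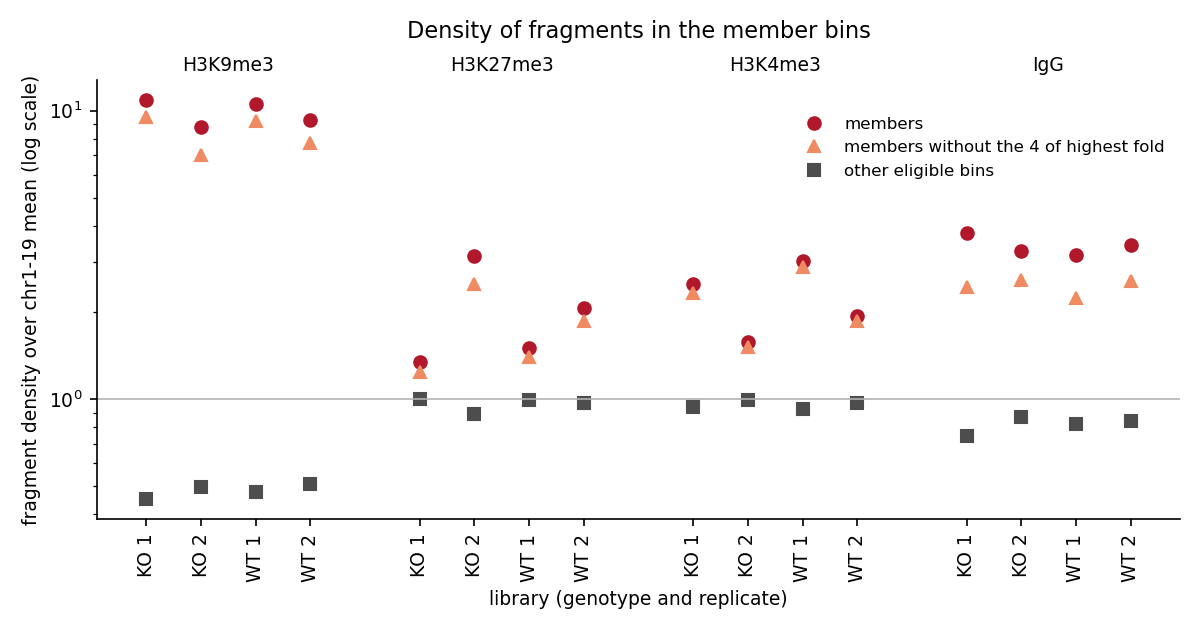
Density of distinct fragments in the members, in the members without the 4 of highest fold and in the other eligible bins, relative to the chr1-19 mean of each library (y, log scale), for each of the 16 libraries (x); each symbol is 1 library. H3K9me3 members lie between 8.79 and 10.9 and the other bins near 0.5, while IgG members lie between 3.17 and 3.78, with a large part of the IgG excess in 4 bins.

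A pooled IgG fold of at least 4 was seen in 920 members, or 10.4%, and in 1.23% of the other eligible bins. At a mean of 2.82 IgG fragments a bin over the 4 libraries, single bins are poorly measured in IgG, and 330 members had no IgG fragment, a count that allows up to 3. The median pooled IgG fold was 2.13 in members and 0.355 in the other eligible bins. The same medians were 0.715 and 0.272 for H3K4me3 and 0.491 and 0.196 for H3K27me3. In contrast, the share of bins at a fold of 4 or more hardly set members apart in these marks, with 5.94% against 5.76% for H3K4me3 and 3.97% against 5.33% for H3K27me3.

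The 4 members of highest fold were satellite bins, and they were also 4 of the 5 members of highest IgG. The major satellite bin on chr2 had an H3K9me3 fold of 6163 and 7570 in KO and 5857 and 6710 in WT, and an IgG fold of 6359 and 3244 in KO and 4598 and 4264 in WT. The chr14 bin had 5502 and 7108 in KO and 5043 and 5852 in WT, against a pooled IgG fold of 3231. The chr9 bin had 628 and 844 in KO and 583 and 710 in WT, against 472 in IgG, and 99.99% of its midpoints lay in 1 kb. In each of the 3, the KO library was above the WT library of its pair, and the pooled H3K9me3 fold was 1.30 to 1.67 times the IgG fold. The chr6 minor satellite bin, at 379 and 372 in KO and 357 and 374 in WT, was at 1.81 times its IgG fold of 202. All these folds count a fragment once, however many rows it has. Repeated rows were 88.5% to 89.5% of H3K9me3 rows on chr2 and 86.1% to 89.5% on chr6. They were a smaller share of IgG rows, 77.3% to 84.1% and 75.4% to 85.3%. Ratios to IgG with every deposited row counted were not computed, so how far satellites stand above IgG is not settled here.

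In distinct fragments, the tandem arrays and the chr5 bins among the 10 of highest fold stood further above IgG. The chr17 array had an H3K9me3 fold of 309 and 211 in KO and 408 and 253 in WT, with an IgG fold of 26.3. The chr4 array, whose 10-kb bin also overlaps Tmem125, a gene for a membrane protein, had 209 and 124 in KO and 277 and 158 in WT, with an IgG fold of 22.0. In both arrays the WT library had the higher H3K9me3 fold in each pair. The chr4 array was dense in H3K27me3 too, at 156 and 768 in KO and 263 and 404 in WT, with the higher value in WT in 1 pair and in KO in the other. The 4 bins on chr5 had pooled H3K9me3 folds of 115 to 119, IgG folds of 9.95 to 11.7 and H3K4me3 folds of 5.31 to 6.09.

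At the other end, the 5 of highest H3K9me3 fold among the 330 members with no IgG fragment had folds of 17.7 to 34.2. They were picked by that fold and are not typical of the 330. The highest was chr12:22580001-22590000, with 38.9 and 15.6 in KO and 41.4 and 25.5 in WT and no protein-coding gene but the predicted genes Gm49377 and Gm40864. Both chr7:15390001-15400000 and chr7:15540001-15550000 lie in the Obox cluster of oocyte-specific homeobox genes, at 21.2 and 16.6 in KO and 19.2 and 15.8 in WT for the first. A pair of others, chr4:146950001-146960000 and chr17:13180001-13190000, had folds of 18.8 and 17.8.

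**Figure D2:**
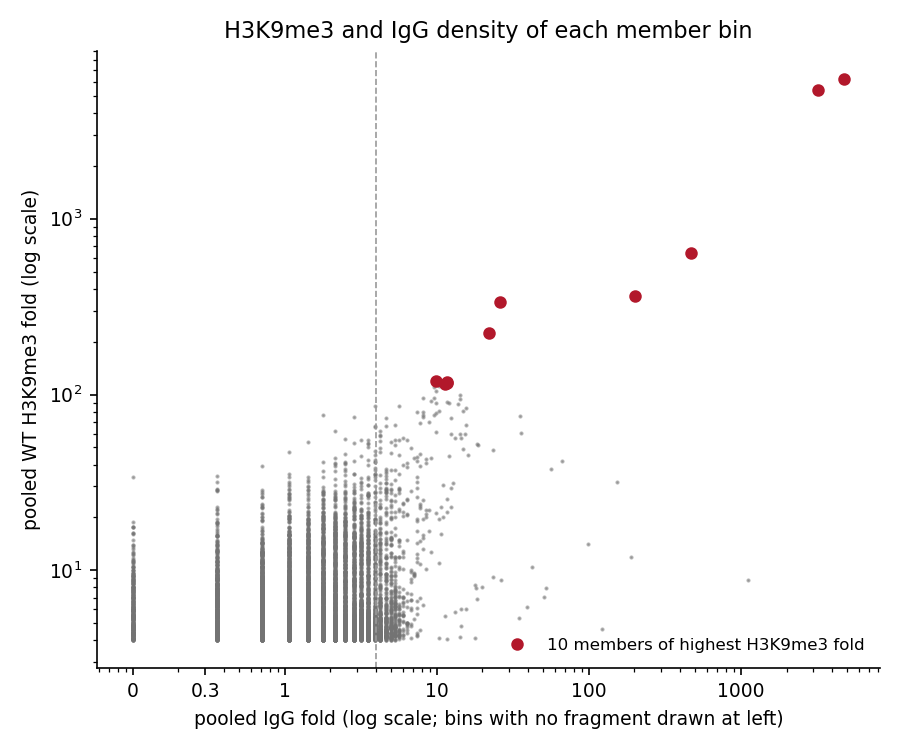
Pooled WT H3K9me3 fold (y, log scale) against the pooled IgG fold (x, log scale, bins without an IgG fragment at the left edge) of each of the 8850 members (grey points), with the 10 members of highest H3K9me3 fold in red and a dashed line at an IgG fold of 4. The major and minor satellite bins at the upper right are high in both, and 330 members at the left edge had no IgG fragment.

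To set H3K9me3 against IgG on libraries the rule did not use, distinct fragments per bin of the KO animals were compared with limma-voom. Of 99031 bins tested over the autosomes, 3.68% were called higher in H3K9me3 at an adjusted p under 0.05, and of the 8850 members, all of which were tested, 2975, or 33.6%, were. Another 16 members, or 0.181%, were called lower, beside 8.49% of all bins. Members held 1554214 and 1056681 H3K9me3 fragments in KO against 32109 and 20526 IgG fragments, so they passed the filter of at least 10 fragments largely through H3K9me3, and these shares are a description. The log2 difference was 1.58 at the median of members and -0.74 at the median of all bins tested, and it was above 0 in 86.0% of members and 27.8% of all bins. With median-ratio scaling, which removes that shift of all bins, the median over members was 2.44 and 2608 members were called higher, beside 3789 of all bins called in either direction. The count rested on both libraries of each kind, since it fell to 0 without H3K9me3 KO 1 or without H3K9me3 KO 2, to 10 without IgG KO 1 and to 43 without IgG KO 2, while the median log2 difference over members stayed at 1.36, 1.81, 1.39 and 1.56 in that order. The count was 1571 when every deposited row was counted, beside 5659 of 160751 bins called in either direction.

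Of the members called higher, the 3 of smallest adjusted p were 2 bins at genes and a tandem array. The bin chr1:88220001-88230000 overlaps Ugt1a7c, a glucuronosyltransferase gene, and Mroh2a, and its signal was not placed within either gene. H3K9me3 was at 73.3 and 59.4 in KO and 50.9 and 56.1 in WT. Of the bin's 25-base words, 11.9% had another copy in the genome. The KO libraries held 1181 and 807 H3K9me3 fragments there and 0 and 1 IgG fragments, too few in IgG to give a fold. The same bin had an H3K4me3 fold of 34.7 and 27.6 in KO and 34.7 and 33.1 in WT. At chr4:147330001-147340000, in the zinc finger gene Zfp988, H3K9me3 was at 116 and 62.2 in KO and 83.4 and 68.7 in WT. The KO libraries held 1870 and 845 H3K9me3 fragments there against 2 and 1 IgG fragments. The chr17 tandem array, with 23 and 16 IgG fragments, was the third (log2 3.42 ± 0.49 SE over IgG, limma adjusted p = 2.53e-09).

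Of the 16 members called lower in H3K9me3 than in IgG, those of smallest adjusted p were bins with a pooled IgG fold over 100. At chr17:4620001-4630000 the IgG fold was 605 and 1125 in KO and 712 and 2371 in WT, against an H3K9me3 fold of 1.06 and 4.34 in KO (log2 -8.60, fitted SE 0.45). The KO H3K9me3 libraries lay further apart there than that standard error allows, so no p is given. The H3K27me3 fold there was 2.999 and 233 in KO and 18.8 and 1592 in WT, so the replicate 2 libraries were the higher ones in both genotypes. At chr8:14300001-14310000, in the postsynaptic gene Dlgap2, the pooled IgG fold was 190 with 94.9% of the H3K9me3 midpoints in 1 kb (log2 -4.57 ± 0.38, adjusted p = 5.91e-30). The third, chr9:62600001-62610000, had a pooled IgG fold of 121.5, with its H3K9me3 midpoints spread more widely, 26.7% of them in the densest 1 kb (log2 -5.02 ± 0.50, adjusted p = 1.16e-20).

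Members were unevenly spread along the genome. Chromosome 7 held 1744 of them, or 12.4% of its eligible bins, followed by chromosome 14 with 952, chromosome 5 with 805, chromosome 4 with 630 and chromosome 12 with 590, and chromosome 11 held the fewest, 105. Mouse chromosomes have their centromere at the start, and the share of members fell with distance from it, from 11.03% of eligible bins at 4 to 10 Mb to 7.34% at 10 to 20 Mb, 4.85% at 20 to 50 Mb, 2.48% at 50 to 100 Mb and 2.03% beyond 100 Mb. Of the 1257 members at 4 to 10 Mb, 369 were the adjacent bins of chr14:4000001-7690000 and 229 those of chr7:7300001-9590000. The share at 4 to 10 Mb without these stretches was not computed. In the excluded chromosome ends, 543 bins had a fold of at least 4.

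**Figure D3:**
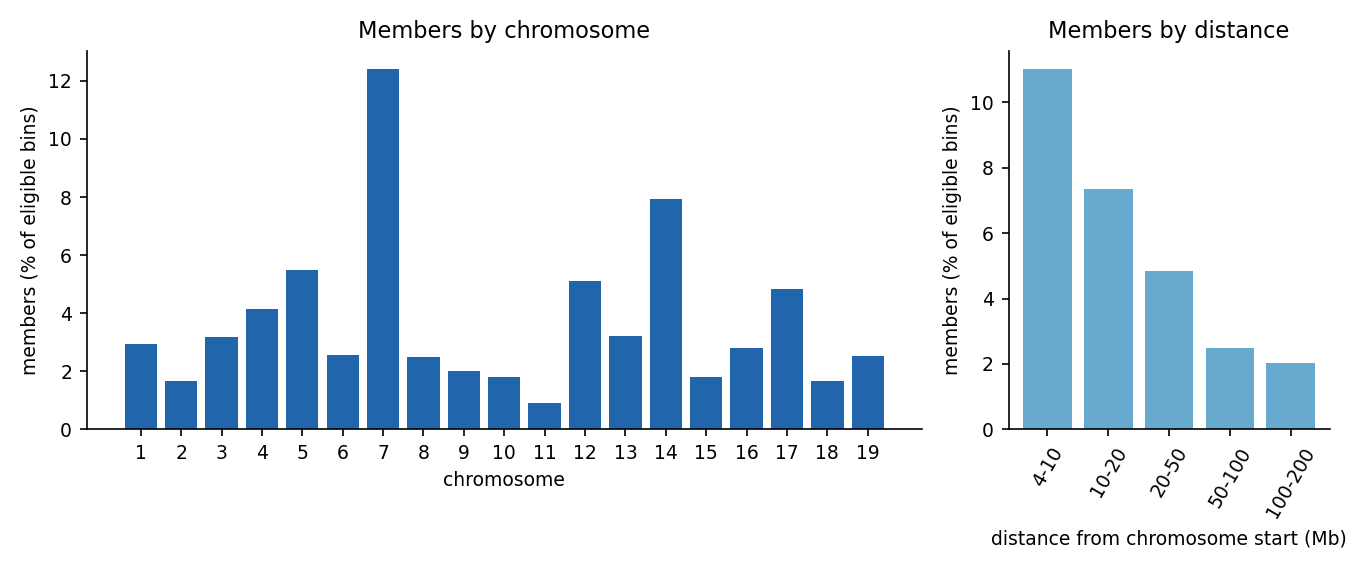
Members as a percent of eligible bins (y, from 0) by chromosome (left) and by distance from the start of the chromosome (right, Mb). Chromosome 7 is highest at 12.4%, and the share falls from 11.03% at 4 to 10 Mb to 2.03% beyond 100 Mb. The 1257 members at 4 to 10 Mb include 369 adjacent bins on chr14 and 229 on chr7.

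Members formed 4112 runs of adjacent bins. Single bins made up 3278 of the runs, or 37.0% of members, while 87 runs of 10 or more bins held 3386 members, or 38.3%, and 16 runs of 50 or more held 1940. The longest run, chr14:4000001-7690000, had 369 bins, begins at the border of the excluded end and holds 81 protein-coding genes, most of them predicted genes with Gm symbols. The next, chr7:7300001-9590000, had 229 bins with 16 Vmn2r genes, which encode pheromone receptors of the vomeronasal organ, and the third, chr7:20070001-21620000, had 155 bins with 31 Vmn1r genes, of the other pheromone receptor family. Median H3K9me3 folds over these 3 runs were 11.7, 9.62 and 12.7 in KO 1, 9.86, 7.80 and 10.2 in KO 2, 12.6, 8.44 and 12.5 in WT 1, and 10.4, 8.71 and 11.4 in WT 2. All 3 runs consisted almost wholly of duplicated sequence, with 96.7%, 97.4% and 99.4% of 25-base words repeated at the median bin.

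Runs and single bins differed in density and in sequence. The median fold over members in runs of 10 or more was 10.9 and 9.05 in KO and 10.1 and 9.57 in WT, and over single members 4.96 and 2.87 in KO and 5.46 and 3.76 in WT. Members in such runs had 93.0% repeated 25-base words but only 50.4% repeat-masked sequence at the median, as duplicated gene clusters have, while single members had 77.4% masked sequence. Over all members the medians were 76.0% repeated words and 68.9% masked bases, against 10.5% and 28.0% in the other eligible bins, and GC content was 40.9% against 41.4%.

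Members were poorer in genes than the rest of the autosomes. A protein-coding gene body overlapped 22.4% of members and 47.9% of the other eligible bins, a pseudogene 14.8% and 5.09%, and no annotated gene 57.8% and 40.5%. Of 20364 protein-coding genes, 1170, or 5.75%, overlapped a member. Among the gene families counted, the shares were larger for Vmn2r genes, with 53 of 114, Vmn1r genes, with 73 of 205, Skint genes, which encode butyrophilin-like proteins of skin and thymus epithelium, with 8 of 11, and cytochrome P450 genes, with 18 of 100. The 9 of 22 Ugt genes with a member were all overlapping Ugt1a gene models that share 2 member bins. Zinc finger genes had 60 of 406 with a member and olfactory receptor genes 75 of 1101. Predicted genes with Gm symbols, which are not 1 family, had 293 of 1177. There were 3 of 26 Klr, 2 of 22 Mup, 1 of 11 Pramel, 3 of 60 Serpin and 1 of 42 Defb genes. None of 80 histone genes and none of 5 Tdpoz genes overlapped one.

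Among the 5 of 10 Speer genes with a member, the highest gene body mean was 60.5. The protocadherins, cell adhesion genes of neurons, had 46 of 67 genes with a member, over 25 member bins in all and nearly all in the cluster on chromosome 18, where the overlapping readthrough gene models Gm42416, Gm37013 and Gm37388 each covered 40 members, the most of any protein-coding genes. Their members had a median H3K9me3 fold of 5.88 in WT and 7.17 in KO.

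Outside that cluster, C130026I21Rik on chromosome 1 had all 29 of its bins among the members, with a median fold of 27.5 in WT and 26.4 in KO. Gm3383, Gm7247, Obox1 and Obox3 had 21, 19, 18 and 17 members. Skint5 had 19 of its 53 bins. At the median member, 88.8% of 25-base words were repeated in C130026I21Rik, 99.9% in Gm3383, 95.1% in Obox1 and 92.8% in Obox3, but 49.7% in Gm7247 and 49.0% in Skint5. Dpf3, Rgs6, Stk32b and Srrm4, with 20, 17, 15 and 14 members, had less, at 5.56%, 7.55%, 12.4% and 4.3% repeated words.

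Of 18 genes for makers, readers and erasers of H3K9me3, 1 overlapped a member, a share close to the 5.75% of all protein-coding genes. It was Kdm4a, an H3K9me3 demethylase, with 1 of its 6 bins. Suv39h2, Cbx5 and Morc2a lie in the excluded chromosome ends and could not overlap one. The mean WT fold over the gene body was 0.32 for Suv39h2 and 0.196 for Setdb1, both H3K9 methyltransferases, and 2.47 for Trim28, the corepressor that recruits Setdb1. It was 4.42 for Morc2a, a silencing ATPase.

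The share of 25-base words with another copy in the genome split the members, and it was not part of the rule. Of the 8838 members with a value, 3913 had at least 80% repeated words, and they were 60.02% of all eligible bins of that kind. Another 3545 had 50 to 80%, 914 had 20 to 50%, and 466 had under 20%, which was 0.275% of the eligible bins so poor in repeats. In this last group the pooled IgG fold was 0.355 at the median, that is 1 fragment over the 4 libraries, with 118 members at 0. It includes the chr9 major satellite bin and the chr6 minor satellite bin, whose short arrays leave 10.4% and 11.9% repeated words over the bin, and 66.4% to 73.1% of the group's H3K9me3 rows were repeated rows.

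In distinct fragments, the low-repeat members were denser in the KO than in the WT libraries that chose them. Their median fold was 7.32 in KO 1 and 7.36 in KO 2, and 5.82 in WT 1 and 5.88 in WT 2, so the genotypes did not overlap. Pooled KO exceeded pooled WT in 431 of 466, or 92.5%, and both sibling pairs had the KO library higher in 349, or 74.9%. The share with pooled KO above WT fell to 72.4%, 33.5% and 29.4% over the classes of rising repeat content. In eligible bins of fold 2 to under 4 it was 77.9% of 1070 low-repeat bins, and 33.0%, 21.6% and 23.9% in the other classes. These are descriptions with no test, since WT values chose the bins. The folds count each fragment once, and the WT libraries held more repeated rows. Repeated rows were 66.4% and 69.3% of the low-repeat members' rows in KO and 72.4% and 73.1% in WT. These shares include the chr9 and chr6 satellite bins, where 86.1% to 90.5% of rows were repeats in either genotype. The shares without those bins were not computed for this group. Over all members without the 4 of highest fold, they were 15.6% and 9.74% in KO and 27.7% and 22.8% in WT. Over the eligible bins that are not members they were 14.9% and 11.1% in KO and 29.5% and 28.4% in WT. Folds with every deposited row counted were not computed by repeat content.

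**Figure D4:**
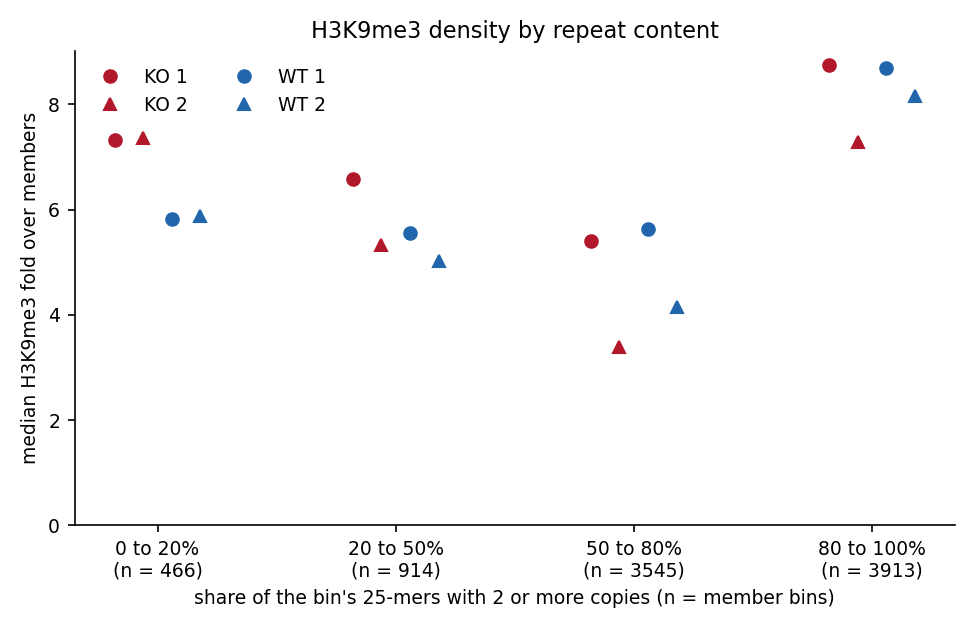
Median H3K9me3 fold over members (y, from 0) in each H3K9me3 library, KO in red and WT in blue, by the share of the bin's 25-base words that occur 2 or more times in the genome (x, with the number of members). Both KO libraries lie above both WT libraries under 20%, at 7.32 and 7.36 against 5.82 and 5.88, and the libraries of the genotypes overlap in the other classes. Folds are of distinct fragments, and repeated rows were more frequent in WT.

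Low-repeat members lay in genes more often than members as a whole. Protein-coding genes overlapped 40.8% of them, against 54.5% of the other eligible bins under 20% repeats, and they numbered 147, of which 16 were zinc finger genes, beside 406 zinc finger genes among all 20364. Dpf3, a subunit of BAF chromatin remodelers, had 19, Rgs6, a regulator of G protein signaling, 14, Srrm4, a splicing factor of neurons, 14, and Stk32b, a kinase, 10. Over the Srrm4 bins the median fold was 9.84 and 7.58 in KO and 7.36 and 6.47 in WT, and over those of Rgs6 it was 8.04 and 6.92 in KO and 6.74 and 6.08 in WT. Both KO libraries were above both WT libraries in these genes. Over the bins of Dpf3 it was 8.69 and 8.10 in KO and 8.24 and 6.43 in WT, and over those of Stk32b 9.46 and 7.73 in KO and 9.78 and 7.25 in WT, with overlapping groups.

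Bin by bin, hardly any KO against WT difference in H3K9me3 passed the threshold, a description for the members, since WT values chose them. With limma-voom, 0.00% of 155669 bins were called higher and 0.000642% lower, and among the members 0 were called higher and 1 lower. At an unadjusted p under 0.05 there were 7 and 33, or 0.452% of members beside 0.676% of all bins. The call was the Sos2 bin that WT 1 alone had made a member, with an H3K9me3 fold of 0.683 and 1.03 in KO. The count was 0 with the sibling pair as a block, with limma-trend and without KO 2, and 8 members were called without KO 1, 3 higher and 5 lower, beside 15 of all bins. The median log2 difference was -0.093 over members and -0.080 over all bins.

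In the libraries of other targets, few members were called between the genotypes, and the fits could miss sizeable differences. The median fitted SE over members tested was 0.94 on the log2 scale for H3K27me3 and 1.01 for IgG. In H3K27me3 WT 2, 59.9% of members had no fragment. For H3K27me3, 6895 members passed the filter of at least 10 fragments, and none was called, beside 0.00% higher and 0.00% lower of all bins. At an unadjusted limma p under 0.05 there were 4 higher and 205 lower, or 3.03% of members tested beside 6.05% of all bins. Limma-trend called 1 and the block by pair 3, the latter beside 46 of all bins, and median-ratio scaling called 93, all lower, beside 2383 of all 79595 bins. Leaving out KO 1 gave 2, beside 8 of 46613 bins, and leaving out WT 1 gave 5, beside 90 of 49343. For IgG, where only 1714 members passed the filter, none was called, beside 0.00% in each direction. At an unadjusted p under 0.05 there were 1 higher and 4 lower, or 0.292% of members tested beside 0.573% of all bins. Limma-trend also called 0, and the block called 10, beside 322 of all 6805 bins.

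For H3K4me3, 0 of 7313 members tested were called higher and 10 lower, beside 0.00% and 0.0128% of all bins. At an unadjusted limma p under 0.05 there were 22 and 310, or 4.54% of members tested beside 1.86% of all bins. At chr5:15650001-15660000, in 4930572O03Rik, the H3K4me3 fold was 203 and 122 in KO and 219 and 169 in WT. At chr5:15620001-15630000, in Speer4d, it was 168 and 94.8 in KO and 184 and 142 in WT. In both, the KO library was lower in each pair and the groups overlapped, and the libraries of a genotype lay further apart than the fitted standard errors of 0.048 and 0.061 on the log2 scale allow, so no p is given. The third was the IgG site at chr17:4620001-4630000, at 14.6 and 9.52 in KO and 31.3 and 44.4 in WT (log2 -1.97, fitted SE 0.18). Its libraries of a genotype also lay further apart than that standard error allows, so no p is given here either. The block by pair and median-ratio scaling each called 8 members, all lower, beside 37 and 12 of all bins. The count turned on single libraries, with 0 without WT 1, 4 without WT 2, 7 without KO 2 and 49 without KO 1, beside 0, 26, 26 and 83 of all bins. It was 1 with limma-trend, beside 1 of all bins, and 1 when every row was counted, beside 4. The direction turned as well, since 6 of the 7 calls without KO 2 and the 1 call with every row counted were higher in KO.

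Repeated rows set the H3K9me3 members apart, and 4 bins carried that. In members 48.6% and 55.0% of KO rows and 52.5% and 54.0% of WT rows repeated a fragment, against 14.9% and 11.1% in KO and 29.5% and 28.4% in WT over the other eligible bins. The mean difference was 31.5 percentage points, higher in 4 of 4 libraries (exact two-sided sign-flip permutation test, p = 0.125, the smallest possible, adjusted 0.125 over 4 targets). Without the 4 members of highest fold, which are satellite bins, the difference was -2.00 points, and with only members of an IgG fold under 4 it was -2.27. In the chr2 bin 88.5% to 89.5% of H3K9me3 rows were repeats. A single fragment of the KO 2 library stood in 20772 rows.

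In the other targets the members had fewer repeated rows than the rest, in 4 of 4 libraries each. The mean difference was -20.2 points for H3K27me3, -27.4 for H3K4me3 and -18.8 for IgG (p = 0.125 each in the same exact test, adjusted 0.125). Those 4 bins held 12.7% to 20.4% of the H3K9me3 fragments in members and 20.2% to 35.1% of the IgG fragments. Whether a repeated row is a copied molecule or a separate cut at the same base of many satellite copies cannot be told apart in these lists.

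**Figure D5:**
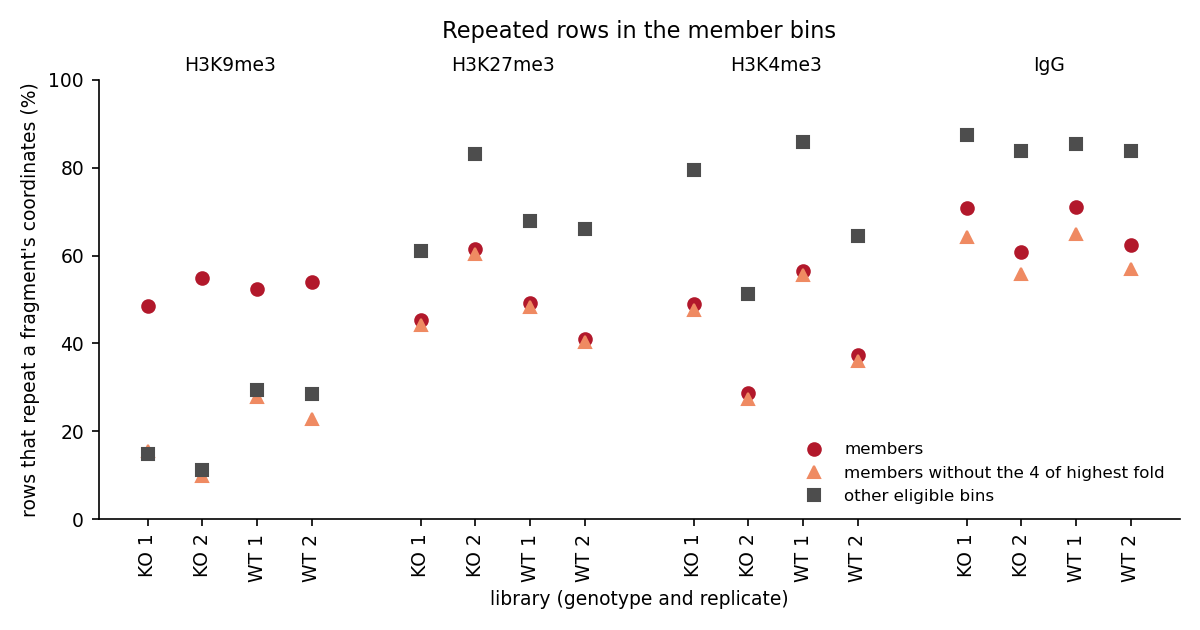
Share of deposited rows that repeat the coordinates of an earlier row (y, %) in members, in members without the 4 of highest fold and in other eligible bins, for each of the 16 libraries (x). In H3K9me3 the members stand at 48.6% to 55.0% and drop to the level of the other bins without 4 satellite bins, while in the other targets members lie below the other bins in every library.

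Most H3K9me3 fragments in members were of nucleosome length. The median length of H3K9me3 fragments was 185 and 173 bp in KO and 182 and 178 bp in WT, and small fragments, of at most 120 bp, made up 18.7% and 31.1% in KO and 13.5% and 24.6% in WT. The small to large ratio, with large fragments of at least 150 bp, differed on the log2 scale between members and other eligible bins by -0.098 for H3K9me3 (lower in 3 of 4 libraries, exact two-sided sign-flip permutation test, p = 0.25, adjusted 0.25 over 4 targets). That difference was -0.0012 without replicate 2, and it turned to 0.40, higher in 4 of 4 libraries, with every deposited row counted. For IgG it was -0.69 and for H3K4me3 -0.29, lower in 4 of 4 libraries each (exact permutation p = 0.125 each, adjusted 0.167). Both rested more on replicate 1, at -0.44 and -0.060 without it against -0.95 and -0.53 without replicate 2, and the H3K4me3 value was 0.0044 with every row counted. The IgG value ranged from -0.95 to -0.25 over all alternatives. IgG small fragments made up 52.6% and 48.1% in KO and 39.2% and 40.5% in WT over members. For H3K27me3 the difference was 0.074 (exact permutation p = 0.125, adjusted 0.167), and it was -0.0079 without the 4 members of highest fold.

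In the members the KO library of each sibling pair had relatively more small fragments than its WT sibling, for every target. On the log2 scale the small to large ratio was higher in KO by 0.52 for H3K9me3, with 0.55 and 0.48 in the pairs, by 0.72 for H3K27me3, by 0.99 for H3K4me3 and by 0.62 for IgG. For H3K4me3 and IgG both KO libraries exceeded both WT libraries, and for H3K9me3 and H3K27me3 the groups overlapped. The exact two-sided permutation test gave p = 0.667, 0.667, 0.333 and 0.333 in that order, all 0.667 after adjustment over 4 targets, and cannot go below 0.333 with 2 libraries against 2. The other eligible bins differed in the same direction, by 0.60 and 0.53 in the H3K9me3 pairs and by 0.55 and 0.45 in the IgG pairs.

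Ratios of small to large H3K9me3 fragments were also compared between KO and WT bin by bin, relative to each library's median bin. Of 8849 members tested, 0 were called higher and 10 lower in KO (limma adjusted p under 0.05), beside 0.00% and 0.0423% of all bins. Members at an unadjusted limma p under 0.05 numbered 67 higher and 95 lower, or 1.83% of those tested beside 1.018% of all bins. The named calls were the major satellite bins of chr2 (log2 -0.58 ± 0.012), chr14 (-0.47 ± 0.017) and chr9 (-0.47 ± 0.038). Without subtracting the library's median, the share of small fragments was 34.3% and 34.7% in KO and 32.9% and 35.0% in WT on chr2, 14.8% and 16.4% against 13.2% and 15.4% on chr14, and 45.1% and 48.9% against 42.02% and 46.6% on chr9, so it was higher in KO in both pairs on chr14 and chr9 and in 1 pair on chr2. The genotypes overlapped in all 3, the standard errors count fragments rather than animals, and 0 calls were left without weights, without KO 2 or without WT 1. Without KO 1 there were 21, without WT 2 19, and with the sibling pair as a block 17, all lower, beside 32, 30 and 28 of all bins. With no filter but 1 fragment the direction turned, with 81 members called higher and 2 lower, beside 102 of all bins.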

How the data were processed

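Haploid spermatids of 2 WT and 2 H2A.B KO males were profiled by AutoCUT&RUN with 4 antibodies. The authors sequenced paired ends of 25 bases, aligned them to mm10 with Bowtie2 (version 2.3.4.3 per the submitters' processing notes) and deposited 1 list of fragment positions and lengths per library, neither scaled nor pooled. No mapping-quality filter is given in the sources used here. Duplicate removal is stated, but the lists still hold rows with identical coordinates.

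Each combination of coordinates was counted once per library, by the bin of its midpoint. Members, lists and tests were chosen with earlier results of these data known. Bins named are the 10 of highest fold, the 3 on each side of the threshold, the 3 longest runs, the 5 of highest and of lowest IgG fold and up to 3 called members per limma fit and direction with the smallest adjusted p. Ties at the lowest IgG fold were broken by the higher H3K9me3 fold. Genes named are those at these bins and the 20 protein-coding genes with the most members; others were picked after their values were seen. Genes are from GENCODE vM21.

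Bins with at least 10 fragments over the 4 libraries of a fit were tested with limma-voom, scaled to chr1-19 totals. For fragment sizes, limma was run on the log2 small to large ratio (0.5 added to both counts) of bins with at least 10 fragments of each size. Values were weighted by their counting variance after subtracting the library's median bin. P-values were adjusted by Benjamini-Hochberg over all bins tested, with a threshold of 0.05. Tests on simulated data with changed bins of known size covered every fit but that of H3K27me3. Most of the changes were recovered except in the size ratio, and the H3K4me3 fit made more false calls than its threshold allows. Changes between KO and WT were 4-fold, and simulated libraries were drawn independently, without the deviations that real libraries of 1 replicate number can share. The recovery therefore does not speak for smaller differences between the genotypes. For H3K9me3 against IgG, the changes were larger than most differences seen in members and lay in bins of many fragments. That recovery does not speak for bins with few IgG fragments. Replicates are separate animals. The methods name 2 sibling pairs, and titles with the same replicate number share a code that the labels do not explain, so equal numbers were taken as pairs. Deviations of the KO and WT library of a pair from their own genotype's mean correlated at 0.40 for H3K9me3, 0.37 for H3K4me3, 0.095 for IgG and 0.044 for H3K27me3 across bins. Alternatives were counting every row, other thresholds, bins shifted, another scaling, filter or weighting, limma-trend, the pair as a block and leaving out each replicate. Python 3.11.15, NumPy 2.4.6, pandas 2.3.3, SciPy 1.17.1, matplotlib 3.10.9, R 4.3.3 and limma 3.58.1 were used.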

Additional observations from a re-analysis of the deposited data

Results flagged for a closer look

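The share of repeated rows moved in opposite directions between the targets. Members exceeded the other eligible bins by 31.5 percentage points on average over the H3K9me3 libraries, in 4 of 4, while they fell below them by a mean of -20.2 points in H3K27me3, -27.4 in H3K4me3 and -18.8 in IgG, each in 4 of 4. The difference between the targets itself was not tested. Without the 4 satellite bins of highest fold the H3K9me3 value was -2.00 points.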

How the results depend on the processing

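The number of members was 5169 when every deposited row was counted, 15324 at a fold of 3 and 4269 at a fold of 6. It was 6789 without replicate 1 and 11565 without replicate 2, and 9393 with the chromosome ends kept. For KO H3K9me3 against KO IgG, 1571 members were called higher with every row counted, and 0 to 43 when 1 library was left out. Between KO and WT, leaving out 1 library gave 0 to 8 called members in H3K9me3, 0 to 5 in H3K27me3, 0 to 49 in H3K4me3, 0 in IgG and 0 to 21 in the small to large ratio, where the lone library was assumed to vary like the others. With the sibling pair as a block, the counts were 0 in H3K9me3, 3 in H3K27me3, 10 in IgG and 17 in the size ratio, against 1, 0, 0 and 10 without it, and the block gave 3008 for KO H3K9me3 against IgG and 8 for H3K4me3. The pairing changed no other call. With no filter but 1 fragment, the counts were 0 in H3K9me3, 2 in H3K27me3, 4 in H3K4me3, 34 in IgG and 83 in the size ratio, beside 0, 6, 8, 359 and 102 of all bins. Of the 83, 81 were higher and 2 lower in KO, against 0 and 10 with the filter. In H3K4me3, 6 of the 7 calls without KO 2 and the 1 call with every row counted were higher, against 0 higher otherwise. Limma-trend gave 0 in H3K9me3 and 1 each in H3K27me3 and H3K4me3, median-ratio scaling 0 in H3K9me3 and 93 in H3K27me3, counting every row 1 each in H3K4me3 and IgG, and leaving out the weights 0 in the size ratio. The excess of repeated rows in H3K9me3 members turned to -2.27 points with members of an IgG fold under 4 and to -2.00 without the 4 members of highest fold, an alternative chosen after seeing the data. The small to large ratio of members against other bins turned to 0.40 in H3K9me3 and to 0.0044 in H3K4me3 with every row counted. In H3K27me3 it turned to -0.0079 without those 4 members and to -0.0025 with limits of 100 and 140 bp. Leaving out replicate 1 or 2 gave -0.19 and -0.0012 in H3K9me3, -0.060 and -0.53 in H3K4me3 and -0.44 and -0.95 in IgG. The IgG value stayed negative, between -0.95 and -0.25, over all alternatives. The cause was not tested in any of these. IgG depth limits the values of single bins, and repeat content limits which locus a fragment can be tied to.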

Other observations

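The LINE-1 stretch split the members by density. Members that hold it had a median pooled H3K9me3 fold of 4.89 in WT and 4.34 in KO, and members without it 6.95 in WT and 7.31 in KO. Only 3 of the 466 low-repeat members held it, or 0.644%, against 46.4% of the members with an IgG fold of at least 4. All 12 members that hold a 20-base stretch of the major satellite bins, those bins included, had a higher pooled H3K9me3 fold in KO than in WT. Pooled KO exceeded WT in 29.4% to 92.5% of members across the classes of repeat content. Of the 4 eligible bins with such a stretch that missed the threshold, those on chr15, chr10 and chr11 were lower in KO and that on chr8 higher. Bins of 1 repeat family can share fragments, so the 12 are not separate observations. Beside the bins already named, the densest of the 12 were a pair on chromosome 12, with 112 and 96.0 in KO and 94.0 and 80.8 in WT. Then came 1 bin each on chromosomes 13 and 3, with 54.4 and 27.2 in KO and 42.1 and 21.004 in WT. The pooled IgG folds were 14.2, 14.9, 66.4 and 3.55 in that order. No test was made, since WT values chose the members, and these bins were picked after their values were seen.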
